A study of Mus musculus with 8 samples.

Results

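The 8 genes described here, Hmgcs1, Idi1, Fdps, Fdft1, Sqle, Lss, Cyp51 and Dhcr7, encode enzymes along the route from acetyl units to cholesterol. They were taken from a named list, and every probe set of the array that the platform annotation ties to 1 of these symbols was used. That gave 11 probe sets for 8 genes, out of 12422 probe sets and 8251 genes with a symbol of their own. Fdps had 4 probe sets and each of the other genes had 1. All 8 are synthesis enzymes.

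RNA came from whole mouse lungs and was measured on 8 Affymetrix arrays, 2 in each of 4 groups. RA-Dex lungs were given retinoic acid on day 3 and dexamethasone on day 4, Dex lungs oil and then dexamethasone, RA lungs retinoic acid and then saline, and Dil lungs oil and then saline. No label defines Dil, and it was taken as the oil and saline group because no other group is left for that pair of treatments. The replicates are lettered a and b. No label says whether they are separate animals, and p-values therefore speak for the spread between arrays, which may be technical. The labels used here give no strain, dose or time of collection.

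Cholesterol is built from acetyl-CoA through mevalonate, isoprenoid units, squalene and lanosterol. The genes of the route are known targets of the transcription factor SREBP-2, which is released from the endoplasmic reticulum when membrane sterol runs low. SREBP proteins act at sterol regulatory elements together with the factors NF-Y and Sp1. In the lung, type II epithelial cells use cholesterol as part of surfactant, and every dividing or growing cell needs it for membrane.

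Promoter sequence was available for 5 of the 8 genes, in 7 windows of 300 bases that run from 250 bases before to 50 bases after a RefSeq gene start (build GRCm38.p6). Dhcr7 had 3 windows and the others 1 each. Sqle, Fdps and Fdft1 had none. The sterol regulatory element core CACCCCAC, searched on both strands, was in the window of Hmgcs1 alone, and 2.87% of all 32851 windows held it. With 1 free letter (CACNCCAC, which includes the first form) it was again in that window alone of the 7, and in 6.24% of all windows. The stretch at chr13:119690204-119690233, plus strand, is shown 5′ to 3′ because it carries that core, here in capitals.

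Hmgcs1 sterol element: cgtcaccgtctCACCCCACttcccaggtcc

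The NF-Y box CCAAT, which reads as ATTGG on the other strand, was in a window of each of the 5 genes, 37.4% of all windows held it, and Dhcr7 had it in 1 of its windows. The GC box GGGCGG, bound by Sp1, was also in a window of all 5 genes and in 35.7% of all windows. The E-box CACGTG was in 1 of the 7 windows, that of Dhcr7, and in 7.15% of all windows. The box closest to the gene start on its upstream side lay 45 bases before the start in Hmgcs1, 14 in Idi1, 62 in Lss, 29 in Cyp51 and 49 in Dhcr7. These stretches of 45 bases show the NF-Y box, in capitals, as 1 of the 2 elements found for all 5 genes. They lie at chr13:119690286-119690330 (plus strand), chr13:8885572-8885616 (plus), chr10:76531523-76531567 (plus), chr5:4104702-4104746 (minus) and chr7:143830145-143830189 (plus). A match of letters is a description and was not tested as a binding site.

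Hmgcs1: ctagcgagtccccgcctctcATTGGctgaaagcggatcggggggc
Idi1: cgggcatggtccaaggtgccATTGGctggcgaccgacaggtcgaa
Lss: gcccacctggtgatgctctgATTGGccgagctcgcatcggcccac
Cyp51: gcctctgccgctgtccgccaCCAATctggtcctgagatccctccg
Dhcr7: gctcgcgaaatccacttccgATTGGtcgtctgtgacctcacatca

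Signals were deposited on a linear scale with every array scaled to the same mean. Median signals per array lay between 316 and 342. Signals under 85.3, the 25th percentile over all arrays, were set to that floor before log2 was taken, and the plain signals are given below. A probe set was tested if its mean log2 signal was above the 40th percentile, which 7309 probe sets were. Of 14 lung markers 12 were on the array, with Sftpc between 61592 and 84336, Scgb1a1 between 40353 and 52034 and Sftpd between 91.2 and 237. Of the 12, 0 were at or under the floor on all arrays, which also held for the 11 skeletal muscle markers. The summed signals of skeletal muscle and squamous epithelium markers were higher in the Dil arrays, which did not hold for every marker. Both Dil arrays were above the 6 others for 3 of the 11 muscle and 4 of the 12 squamous markers. Acta1 (2198 and 1314) and Krt4 (4680 and 2553) had the highest Dil signals of their lists. The Dil arrays of Actn3, Krt1, Krt10 and Lor overlapped with other groups. The summed signal of 11 muscle markers was 1973 to 1986 in RA-Dex, 1434 to 2222 in Dex, 2009.6 to 2376 in RA and 3642 to 4668 in Dil. That of 12 squamous markers was 2950.2 to 4047 in RA-Dex, 3892 to 4821 in Dex, 2916 to 4042 in RA and 5924 to 10039 in Dil, with Krt14, Krt15 and Ivl under the floor described above on every array. What such tissue adds to the signals of the 8 genes was not tested.

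Of the 8 genes, 7 had a probe set that was tested (8 of the 11 probe sets), and Dhcr7 was below the filter. For a gene with several probe sets, the one with the highest mean log2 signal stands for it. Sqle was the one gene that changed past the threshold, an adjusted p under 0.05 in limma: it was lower in dexamethasone lungs, and lowest after both treatments. Of the 7 tested genes, 0 rose and 1 fell with dexamethasone averaged over the day 3 treatment, where 7.83% of all tested probe sets were called, 4.26% higher and 3.57% lower. With retinoic acid averaged over the day 4 treatment 0 of 7 were called, where 0.15% of all probe sets were.

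Sqle encodes squalene epoxidase, the enzyme that adds oxygen to squalene and opens the sterol part of the route. Its signals were 688 and 699.7 in RA-Dex lungs, 1051 and 1014 in Dex lungs, 1105 and 1214 in RA lungs, and 1949.8 and 1512 in Dil lungs. No 2 of the 4 groups overlapped, and the order from low to high was RA-Dex, Dex, RA, Dil. How many of all tested probe sets show no overlap between any 2 groups was not counted. The neighbours Dex and RA were close, with RA above Dex by 0.17 on the log2 scale, which was not tested, against a within-group SD of 0.14.

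Averaged over the day 3 treatment, Sqle fell to 0.60 of its level with dexamethasone (log2 fold change -0.74 ± 0.132 SE, n = 4 against 4, limma adjusted p = 0.00606). Its 95% interval ran from -1.03 to -0.45. The log2 fold change was much the same within each arm, -0.74 ± 0.187 in RA-Dex against RA (adjusted p = 0.0599) and -0.73 ± 0.187 in Dex against Dil (adjusted p = 0.0648), neither of which passed. In those comparisons 3.5% and 3.23% of all tested probe sets were called, and 0 of the 7 genes. The interaction, which sets the dexamethasone effect in retinoic acid lungs against that in oil lungs, was -0.01 ± 0.264 for Sqle, with a 95% interval of -0.59 to 0.58. Without both Dil arrays the contrast was the mean of Dex and RA-Dex minus RA. Part of it compares Dex with RA, which differ in both treatments. For Sqle this contrast was -0.45 ± 0.159 and did not pass (limma adjusted p = 0.159).

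Sqle was also lower in retinoic acid lungs, which did not pass the threshold. The log2 fold change was -0.57 ± 0.132 averaged over the day 4 treatment (limma adjusted p = 0.248), -0.57 ± 0.187 in RA against Dil (adjusted p = 0.457) and -0.57 ± 0.187 in RA-Dex against Dex (adjusted p = 0.949). RA-Dex against Dil, a contrast added after these values were seen, gave -1.31 ± 0.187 (0.404 of the Dil level, adjusted p = 0.00259). It was the one call among the 7 genes there, where 4.01% of all probe sets were called. Both RA-Dex arrays lay under the 6 others for Sqle alone among the 7 genes, a pattern that 6.06% of all tested probe sets showed.

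**Figure D1:**
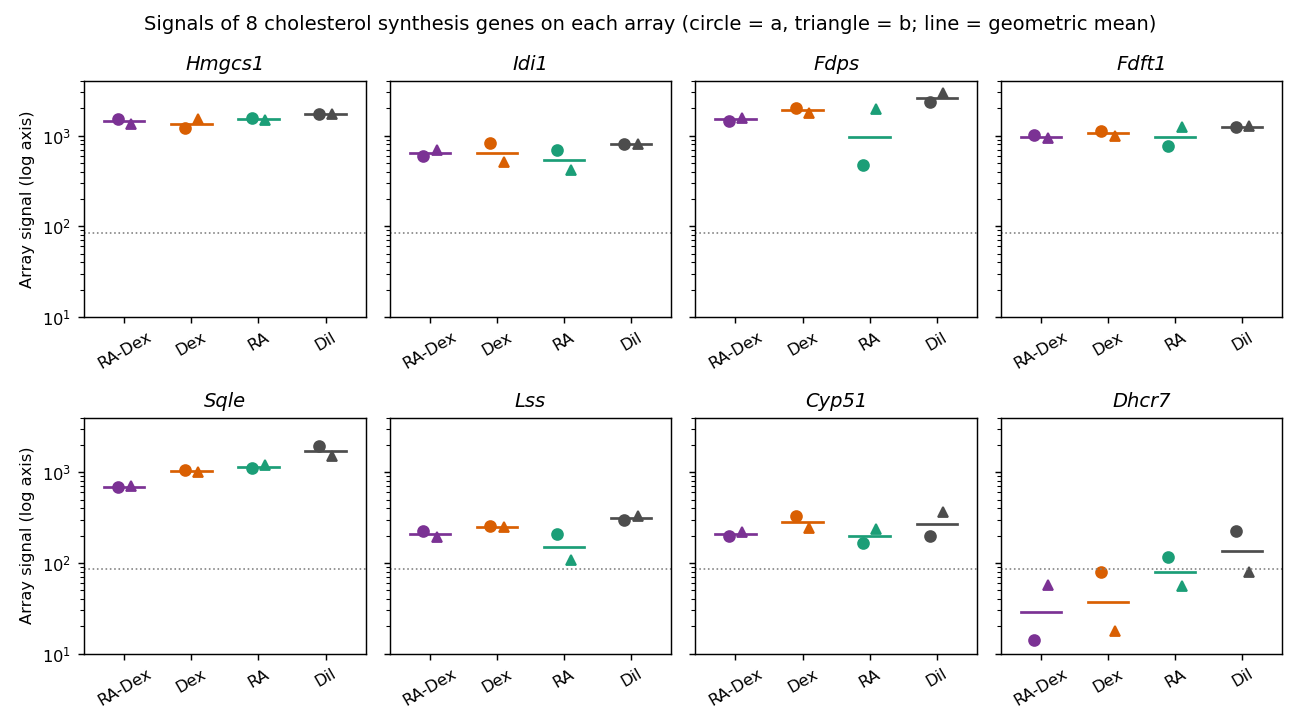
Array signal (log axis) of each of the 8 genes in RA-Dex, Dex, RA and Dil lungs, 2 arrays a group (circle a, triangle b), with the geometric mean as a line and the floor of 85.3 dotted. Sqle is at 688 and 699.7 in RA-Dex, against 1949.8 and 1512 in Dil, Fdps has 1 low RA array at 475, and Dhcr7 lies mostly under the floor; levels are not comparable between panels.

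None of the other 6 tested genes passed in any contrast over all 8 arrays. Hmgcs1, the cytosolic synthase that makes HMG-CoA, the precursor of mevalonate, had signals of 1533 and 1336 in RA-Dex, 1213 and 1519 in Dex, 1568 and 1504 in RA, and 1743 and 1722 in Dil. Both Dil arrays were above the others, and the other 3 groups overlapped. Its log2 fold change with dexamethasone was -0.23 ± 0.125 (limma adjusted p = 0.341, 95% interval -0.50 to 0.05), and with retinoic acid -0.05 ± 0.125 (adjusted p = 0.978, 95% interval -0.32 to 0.23).

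Idi1 encodes the isomerase that converts isopentenyl diphosphate to dimethylallyl diphosphate, the starter of the isoprenoid chain. Its signals were 602 and 688 in RA-Dex, 822 and 512 in Dex, 698 and 418 in RA, and 799 and 802 in Dil. The Dex arrays, at 822 and 512, enclosed both RA-Dex and both Dil arrays, and RA-Dex and RA overlapped as well. The log2 fold change was -0.03 ± 0.207 with dexamethasone (limma adjusted p = 0.966) and -0.29 ± 0.207 with retinoic acid (adjusted p = 0.916).

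Fdps makes farnesyl diphosphate, the branch point between sterols, prenylated proteins and other isoprenoids. Its probe set of highest mean signal, 99098_at, read 1461 and 1555 in RA-Dex, 2016 and 1783 in Dex, 475 and 1943 in RA, and 2354 and 2924 in Dil. RA replicate a was far below its partner, and both Dil arrays were above all the others. The log2 fold change in RA against Dil was -1.45 ± 0.472 (limma adjusted p = 0.457). It was -2.47 without RA replicate b, where it was called (adjusted p = 0.00301), and -0.43 without RA replicate a (adjusted p = 0.76). With dexamethasone the averaged value was 0.09 ± 0.334 (adjusted p = 0.921), 0.60 without RA replicate b (adjusted p = 0.0269) and -0.42 without RA replicate a (adjusted p = 0.0978), so the direction depended on which RA array was kept.

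The other tested Fdps probe set, 160424_f_at, was steadier. Its suffix marks probes that can match several members of a sequence family, so its signal may include related transcripts. It read 1317 and 1619 in RA-Dex, 1772 and 2018 in Dex, 1119 and 1333 in RA, and 1897 and 1748 in Dil. All 4 retinoic acid arrays were below the 4 others, a pattern whose share over all tested probe sets was not counted. The log2 fold change was -0.47 ± 0.129 with retinoic acid (limma adjusted p = 0.347, 95% interval -0.76 to -0.19) and 0.16 ± 0.129 with dexamethasone (adjusted p = 0.554). In this probe set the Dex and Dil arrays overlapped.

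Another probe set of Fdps, 162281_at, read 35.1 and 62.5 in RA-Dex, 82.4 and 71.9 in Dex, 76.1 and 34.0 in RA, and 219 and 311 in Dil. It was above the floor in the Dil arrays and in none of the other 6, and its mean was below the filter, so it was not tested. The last one, 162217_r_at, was under the floor on all 8 arrays (4.05 to 73.4).

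**Figure D2:**
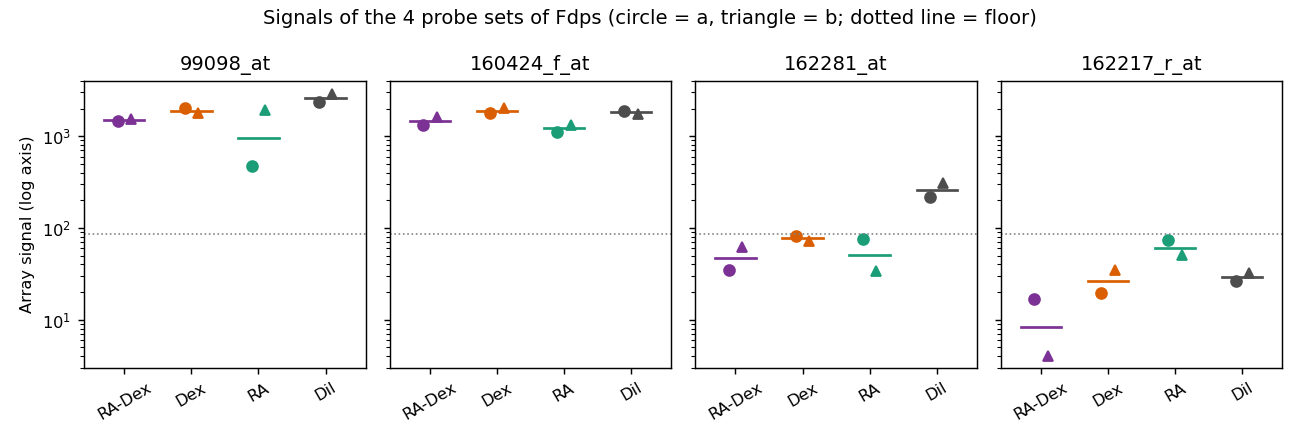
Array signal (log axis) of the 4 probe sets of Fdps in RA-Dex, Dex, RA and Dil lungs, 2 arrays a group, with geometric means as lines and the floor of 85.3 dotted. The low RA array at 475 appears in 99098_at and not in 160424_f_at (1119), and 162281_at is above the floor in Dil alone (219 and 311).

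Fdft1 encodes squalene synthase, the first enzyme committed to sterols, which feeds Sqle. Its signals were 1004 and 931 in RA-Dex, 1138 and 978 in Dex, 758 and 1249 in RA, and 1229 and 1266 in Dil. The 2 RA arrays enclosed every other array but 1, and RA-Dex and Dex were both below Dil. The log2 fold change was -0.13 ± 0.166 with dexamethasone (limma adjusted p = 0.744) and -0.24 ± 0.166 with retinoic acid (adjusted p = 0.911). Its 95% interval for dexamethasone ran from -0.49 to 0.24, and the difference from Sqle, the next enzyme, was not tested.

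Lss encodes lanosterol synthase, which closes the ring system on the product of Sqle. Its signals were 226 and 193 in RA-Dex, 257 and 247 in Dex, 207 and 107 in RA, and 301 and 327 in Dil. The 4 retinoic acid arrays were all below the 4 others, a pattern whose share over all tested probe sets was not counted. The log2 fold change was -0.67 ± 0.295 with retinoic acid (limma adjusted p = 0.773) and 0.08 ± 0.295 with dexamethasone (adjusted p = 0.917). In RA against Dil it was -1.07 ± 0.418 (adjusted p = 0.55).

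Cyp51 encodes the cytochrome P450 that removes a methyl group from lanosterol. Its signals were 199 and 220.1 in RA-Dex, 326 and 246 in Dex, 165 and 239 in RA, and 200.3 and 362 in Dil. The Dil arrays overlapped every other group. The log2 fold change was 0.07 ± 0.295 with dexamethasone (limma adjusted p = 0.926) and -0.44 ± 0.295 with retinoic acid (adjusted p = 0.908).

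Dhcr7 encodes the reductase of the last step, from 7-dehydrocholesterol to cholesterol. Its signals were 14.2 and 57.1 in RA-Dex, 78.5 and 17.9 in Dex, 115 and 55.7 in RA, and 224 and 80.2 in Dil. On 6 of the 8 arrays it was under the floor, so these values show no order among the groups and it was not tested.

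As a group, the 7 tested genes had values below 0 with retinoic acid, none of which passed. All 7 log2 fold changes were below 0 for retinoic acid averaged over the day 4 treatment, from -0.89 to -0.05 with a median of -0.44, where 3654 of all 7309 tested probe sets were below 0 and their median was 0.00. The median was -0.36 without Fdps. In this contrast 3 of the 7 genes and 460 of all tested probe sets had an unadjusted p under 0.05.

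Split by the day 4 treatment, in RA-Dex against Dex 6 of 7 were below 0, with a median of -0.27 (all probe sets -0.01), and in RA against Dil 7 of 7, with a median of -0.57 (all probe sets 0.01). The limma fit called 0 of the 7 in each, 0.0958% and 0.0274% of all probe sets, and 1 and 3 of the 7 had an unadjusted p under 0.05, as did 302 and 584 of all 7309 probe sets. The interaction was called for 0 of 7 genes and 0.0137% of all probe sets, with 0 of 7 genes and 409 of all probe sets at an unadjusted p under 0.05, so a difference between the arms was not shown. These contrasts share arrays with each other and are not independent of one another.

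With dexamethasone averaged over the day 3 treatment, 4 of the 7 genes were below 0 and 3 above. The range was -0.74 to 0.09 and the median -0.03, the same as over all tested probe sets (-0.03). Split by the day 3 treatment, Dex against Dil had 6 of 7 below 0, with a median of -0.32 (all probe sets -0.02, 53.1% below 0). RA-Dex against RA had 3 of 7 below 0, with a median of 0.08 (all probe sets -0.05, 56.0% below 0). In RA-Dex against Dil 7 of 7 were below 0, with a median of -0.37 (all probe sets -0.05, 55.9% below 0).

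**Figure D3:**
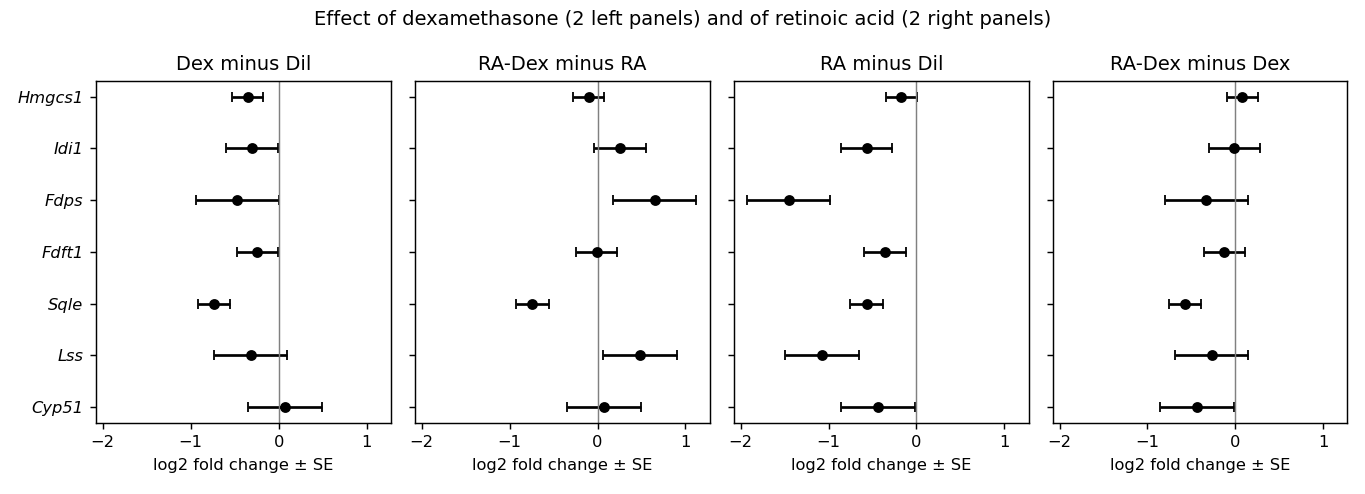
Log2 fold change with its SE for the 7 tested genes in 4 comparisons of 2 arrays against 2. Sqle is at -0.73 and -0.74 in the dexamethasone panels and at -0.57 in both retinoic acid panels, and no point in these 4 comparisons passed the adjusted threshold.

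The control arrays stood at the top for most of these genes, a count made after the values were seen. A Dil array was the highest for 6 of the 7 tested genes, the exception being Idi1, whose highest was Dex replicate a. The share of all tested probe sets with a Dil array highest was not counted. Both Dil arrays were above all 6 others for Hmgcs1, Fdps, Sqle and Lss, 4 of 7, where 6.2% of all tested probe sets showed that pattern. The same held for 3 of the 11 muscle markers, 4 of the 12 squamous markers, 1 of the 5 liver markers and 1 of the 12 lung markers (Col1a1). It held for 0 of 8 macrophage, 0 of 4 lipofibroblast and 0 of 4 thymus and T cell markers. The part of such tissues and cells in the result was not tested. For Sqle, the log2 fold change was -0.74 in RA-Dex against RA and -0.57 in RA-Dex against Dex, whose group means use no Dil array. Neither passed (limma adjusted p = 0.0599 and 0.949).

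The 7 genes differed in their pattern from array to array. Over the 8 arrays, Pearson correlations of log2 signal in the 21 pairs ran from -0.21 (Hmgcs1 and Cyp51) to 0.91 (Fdps and Fdft1), and the next highest were 0.79 (Idi1 and Lss) and 0.73 (Fdps and Cyp51). They are a description over arrays that share 4 group means. RA replicate a was the lowest array for 3 genes, Fdps (475 in 99098_at), Fdft1 and Cyp51, and RA replicate b was the lowest for 2, Idi1 and Lss. The highest pairs named above are made of these genes, and correlations were not computed without either RA array. The within-group SD of log2 signal was 0.14 for Hmgcs1 and Sqle, and between 0.27 and 0.73 for the other 5.

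Of 5583 other genes compared over the 8 arrays, those most like Sqle were Icam2, an adhesion molecule of endothelium (r = 0.96), Mest, an imprinted gene (0.96), Mcm3, a subunit of the replication helicase (0.95), the mitochondrial carrier Slc25a39 (0.94) and Tamm41, an enzyme of mitochondrial lipid synthesis (0.94). Mcm3, for example, read 821 and 864 in RA-Dex, 1228 and 1351 in Dex, 1660.2 and 1930.5 in RA, and 2276 and 1903 in Dil. The genes most like the mean of the 7 standardized profiles were Incenp (0.96), Igfbp4 (0.95), Fam3a (0.95), Bak1 (0.95) and Slc9a3r1 (0.95). These are descriptions with no test.

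In the rest of the pathway, the changes past the threshold were in export and in fatty acid enzymes. Abca1, the pump that exports cholesterol from the cell, read 2079.6 and 2414 in RA-Dex, 1573 and 1809 in Dex, 1109.7 and 669.6 in RA, and 882 and 601 in Dil. All 4 dexamethasone arrays were above the 4 others, a pattern whose share over all tested probe sets was not counted. It rose 2.45-fold with dexamethasone (log2 fold change 1.30 ± 0.186, limma adjusted p = 0.00156), 2.60-fold in RA-Dex against RA (adjusted p = 0.0167) and 2.32-fold in Dex against Dil (adjusted p = 0.0325). The averaged call failed without the filter on low signals (adjusted p = 0.0689) and with the mean of its 2 probe sets (0.80, adjusted p = 0.102), the second of which, 97198_at, was below the filter. The calls in RA-Dex against RA and in Dex against Dil also failed without that filter (adjusted p = 0.183 and 0.249), with no intensity trend (0.0705 and 0.107) and with the mean of the probe sets (0.288 and 0.377). The call in RA-Dex against RA failed without RA replicate b (adjusted p = 0.0724) or either RA-Dex array (0.0856 without a and 0.162 without b). The call in Dex against Dil failed without Dil replicate b (adjusted p = 0.22), either Dex array (0.123 without a and 0.211 without b) or either RA-Dex array (0.0631 without a and 0.0637 without b).

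Abca1 was the 1 called of 6 tested genes of efflux and oxysterols with dexamethasone. In the fatty acid synthesis list 2 of 7 rose and 1 fell. Elovl5, an elongase of polyunsaturated fatty acids, read 7738 and 10023 in RA-Dex, 9335 and 7169 in Dex, 4525 and 5253 in RA, and 5867 and 4947 in Dil. All 4 dexamethasone arrays were above the 4 others, again with no count of that pattern over all tested probe sets. Elovl5 rose by 0.73 ± 0.129 on the log2 scale (limma adjusted p = 0.00575). The desaturase Scd2 rose by 0.52 ± 0.138 (adjusted p = 0.0416), and its second tested probe set gave 0.14 ± 0.126. The related desaturase Scd1 fell (-0.53 ± 0.110, adjusted p = 0.0134), with signals of 5197 and 6930.4 in RA-Dex, 5149.8 and 4707 in Dex, 10616 and 10196 in RA, and 5784 and 6082 in Dil. Both RA arrays stood above all others, and Scd1 fell in RA-Dex against RA (-0.79 ± 0.156, adjusted p = 0.0186), while Dex against Dil gave -0.27 ± 0.156 (adjusted p = 0.485) and the interaction -0.52 ± 0.220 (adjusted p = 0.862). Its second tested probe set, 94057_g_at, read 2306 and 4947 in RA-Dex, 2651 and 2337 in Dex, 4266 and 4511 in RA, and 5439.8 and 3246 in Dil. There the RA arrays were not the highest, RA-Dex against RA was -0.38 ± 0.320, Dex against Dil -0.76 ± 0.320 and the interaction 0.38 ± 0.453, none of which passed. The averaged calls of Elovl5, Scd2 and Scd1 all failed without the filter on low signals (adjusted p = 0.0971, 0.255 and 0.0935), and those of Scd2 and Scd1 also with the mean of all probe sets of a gene (0.168 and 0.223) and with no intensity trend (0.138 and 0.0699). That of Scd2 failed with quantile normalization too (0.055). The averaged call of Scd1 failed when RA-Dex replicate a (0.0549) or Dex replicate b (0.0692) was dropped, and that of Scd2 without Dil replicate b (0.105), RA replicate a (0.109) or any 1 of the 4 dexamethasone arrays (0.0648 to 0.178). In RA-Dex against RA, Scd1 failed when RA-Dex replicate a (0.172) or either RA array (0.0783 for a and 0.052 for b) was dropped, without the filter (0.118), with no intensity trend (0.101) and with the mean of its probe sets (0.386). Elovl5 rose there by 0.85 ± 0.182 (limma adjusted p = 0.0288), and failed when RA replicate a (0.129) or either RA-Dex array (0.0555 for a and 0.252 for b) was dropped, without the filter (0.198), with no intensity trend (0.123) and with the replicate block (0.0569).

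None of the other tested genes of the route passed with dexamethasone in limma: 0 of 8 further synthesis enzymes (median -0.03, 1 at an unadjusted p under 0.05), 0 of 5 for uptake and handling (median 0.06, 1 at an unadjusted p under 0.05) and 0 of 2 for SREBP control (0 at an unadjusted p under 0.05). Over all tested probe sets 1557 of 7309 had an unadjusted p under 0.05 in this contrast. The 8 further synthesis enzymes split into 4 above 0 and 4 below. Their values at either end, chosen after the values were seen, were 0.42 ± 0.143 on the log2 scale for Lbr, a sterol reductase of the nuclear envelope (limma adjusted p = 0.115), and -0.56 ± 0.284 for Msmo1, which acts after Cyp51 (adjusted p = 0.295). In the uptake list the 1 gene at an unadjusted p under 0.05 was Lipa, the lysosomal lipase (0.36 ± 0.123, adjusted p = 0.113). The transcription factor gene Srebf1 had -0.12 ± 0.136 (adjusted p = 0.676), the lysosomal cholesterol transporter Npc1 0.06 ± 0.112 (adjusted p = 0.824) and the fatty acid synthase Fasn 0.44 ± 0.132 (adjusted p = 0.0709). Insig1, which retains SREBP in the endoplasmic reticulum, was under the floor on all 8 arrays (13.1 to 67.2) and not tested. Srebf2 was not analysed here.

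**Figure D4:**
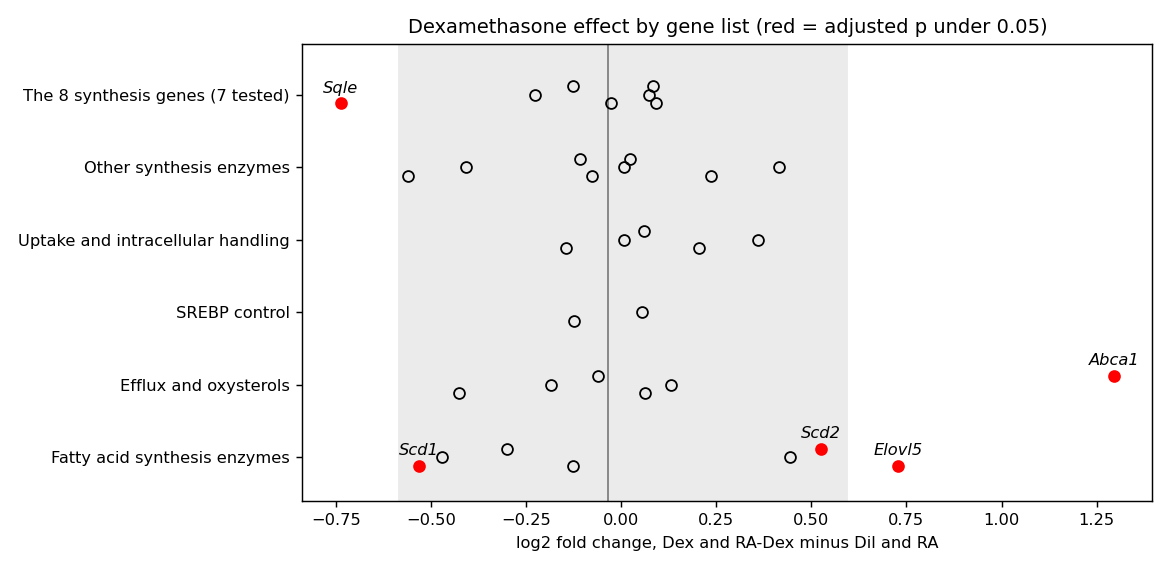
Log2 fold change with dexamethasone (Dex and RA-Dex minus Dil and RA) of each tested gene in 6 lists, called genes in red with their names. The grey band holds the 5th to 95th percentile of all tested probe sets (-0.58 to 0.59) and the line their median; Sqle at -0.74 is alone in red among the 7 tested synthesis genes, and Abca1 at 1.30 is the farthest to the right.

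Some markers of other cells differed between the same groups. The summed signal of 8 macrophage markers was 15822 to 17240.4 in RA-Dex and 16883 to 16988 in Dex, against 20674 to 20934 in RA and 19128 to 20603 in Dil. The 8 did not move together. Tyrobp and Csf1r were lower on all 4 dexamethasone arrays, while Cd68, Lyz2, Ctss and Mrc1 overlapped with the other arrays. Mrc1 read 293 and 380 in RA-Dex and 308 and 280 in Dex, against 275 and 302 in RA and 199.9 and 277 in Dil. Marco was at or under the floor on 7 arrays and Fcer1g on 4. The 4 lipofibroblast markers did not run the same way. Lpl, a lipase, read 1882 and 2603 in RA-Dex and 2293 and 2308 in Dex, against 562 and 350.4 in RA and 376 and 566 in Dil, and Fabp4 was also higher on all 4 dexamethasone arrays. Plin2, a coat protein of lipid droplets, and Pparg overlapped between the groups. The summed signal of the 4 was 4751 to 5767 in RA-Dex and 4818 to 5893 in Dex, against 3166 to 4661 in RA and 3405 to 4716 in Dil. In whole lung, fewer cells of a type and less RNA per cell cannot be told apart, and the part of these cells in the values of Sqle and Abca1 was not tested. The summed signal of 5 liver markers was 615 to 933 in RA-Dex, 430.0 to 658 in Dex, 509 to 561 in RA and 668 to 1075 in Dil. Among them Apoa1 had both Dil arrays above the 6 others (at most 81.5 in those, against 116 and 327 in Dil), Fgb was under the floor on all arrays, and Alb read between 55.7 and 671 with overlapping groups. Their part in the values of the 8 genes was not tested.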

How the data were processed

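Per the labels, total RNA of murine lung was profiled on 8 arrays. The deposited table holds intensity signals on a linear scale, 1 per probe set and array. Per the values, each array had been scaled: with 2% cut from both tails, array means came to 800.4 (highest over lowest 1.00004), so the values were not normalized again. No source used here names the software, and detection calls did not enter.

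Of 12488 probe sets, 66 controls were left out. Symbols came from the platform annotation (10833 probe sets with 1 symbol, 396 with several, 1193 with none) and were updated by Entrez ID for 10817. Signals under the floor of 85.3 were set to it, and log2 was taken. The 7309 probe sets with a mean above a signal of 200.8 (the 40th percentile) were fitted with limma 3.58.1 in R 4.3.3, 1 mean per group over all 8 arrays, eBayes with an intensity trend (4 residual and 6.69 prior degrees of freedom), two-sided, with Benjamini-Hochberg adjustment over all 7309. There were 8 contrasts, 1 of them (RA-Dex against Dil) added later with values in view. The main fit was also run on simulated independent normal values with known changes, and checked for the averaged dexamethasone contrast only. The floor, the filter, the other contrasts and the alternatives were not checked in that way.

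The genes and lists were chosen with earlier results of these data known. Named were the 8 genes, every called gene of the pathway lists, and Insig1, Srebf1, Npc1, Abca1, Scd1 and Fasn wherever measured, and, by likeness, the 5 genes with the highest correlation. Alternatives were quantile normalization, dropping the filter or raising it to the 60th percentile (a signal of 508.5), replacing the floor by a pseudocount, leaving out the intensity trend, the replicate letter as a block, the mean of all probe sets of a gene, and fits without each array in turn and without both Dil arrays. Without both Dil arrays, the dexamethasone contrast was the mean of Dex and RA-Dex minus RA, which also holds a retinoic acid difference. With 2 arrays a group, their number limits the precision.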

Additional observations from a re-analysis of the deposited data

How the results depend on the processing

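Without both Dil arrays, where Dex and RA-Dex were set against RA alone, 0 of the 7 genes were called. Under the other 15 alternatives the fall of Sqle with dexamethasone held (log2 fold change -0.83 to -0.64). Its fall in RA-Dex against Dil held under all 15 run (-1.49 to -1.12, adjusted p up to 0.0346). With the stricter filter 1 gene, Sqle, was called in RA-Dex against RA (adjusted p = 0.0446), where fewer probe sets were tested. Leaving out 1 array gave 1 to 2 called genes for dexamethasone and for RA-Dex against Dil, and 0 to 1 for RA-Dex against RA, for retinoic acid and for RA against Dil. The added call was Fdps each time, without RA replicate b, and in RA-Dex against Dil also without RA replicate a.

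No strong shift shared by the letters a and b was seen: correlations of the a minus b difference between groups ran from -0.22 to 0.14. These values cannot settle whether the letters pair the arrays, since a small shared effect could be missed. With the replicate block 1 of 7 genes was called for dexamethasone, as without it, and the calls of Scd2 (adjusted p = 0.0717) and of Elovl5 in RA-Dex against RA (adjusted p = 0.0569) were lost.

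Signs turned for values of the 7 genes that were called in neither fit. For dexamethasone, Idi1 was 0.0083 with quantile normalization and Fdps -0.14 with the mean of its probe sets. Without both Dil arrays, which sets Dex and RA-Dex against RA, Idi1 was 0.26 and Fdft1 0.054. With quantile normalization Fdft1 was 0.034 in RA-Dex against RA, Idi1 0.021 in RA-Dex against Dex and the interaction of Sqle 0.038, and with the pseudocount that interaction was 0.015. Leaving out 1 array gave, for dexamethasone, Idi1 -0.21 to 0.16, Fdps -0.42 to 0.60, Fdft1 -0.305 to 0.054, Lss -0.15 to 0.32 and Cyp51 -0.14 to 0.29. In Dex against Dil it gave Idi1 -0.65 to 0.039 and Cyp51 -0.35 to 0.50. In RA-Dex against RA it gave Idi1 -0.12 to 0.62, Fdps -0.37 to 1.67, Fdft1 -0.37 to 0.35 and Cyp51 -0.19 to 0.35. It gave Hmgcs1 -0.13 to 0.032 for retinoic acid, Fdft1 -0.72 to 0.0017 in RA against Dil, Cyp51 -0.79 to 0.063 in RA-Dex against Dil, and in RA-Dex against Dex Hmgcs1 -0.086 to 0.24 and Idi1 -0.35 to 0.33. For the interaction it gave Fdft1 -0.13 to 0.59, Sqle -0.19 to 0.18 and Cyp51 -0.42 to 0.43. The causes were not tested.

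The median of the 7 genes for retinoic acid lay between -0.54 (without Dex replicate b) and -0.29 (without Dil replicate b, and with the stricter filter over 5 genes). With no filter the 572 probe sets called for dexamethasone became 349. Dex and RA-Dex against RA, without both Dil arrays, gave 369. With no filter, Dex against Dil gave 96 called probe sets in place of 236, RA-Dex against RA 143 in place of 256, RA-Dex against Dil 147 in place of 293, retinoic acid 23 in place of 11, RA against Dil 11 in place of 2, RA-Dex against Dex 16 in place of 7 and the interaction 22 in place of 1. With no intensity trend these counts were 112, 126, 165, 2, 0 and 3, up to RA-Dex against Dex. With the replicate block, RA-Dex against Dil gave 195 and retinoic acid 5. With the mean of probe sets, retinoic acid gave 4, RA-Dex against Dex 4 and the interaction 0, and the stricter filter gave 1 for RA against Dil. Without 1 array, the counts ran from 309 to 537 for dexamethasone, 80 to 273 for Dex against Dil, 81 to 250 for RA-Dex against RA, 93 to 334 for RA-Dex against Dil, 2 to 19 for retinoic acid, 2 to 16 for RA against Dil, 2 to 7 for RA-Dex against Dex and 1 to 2 for the interaction.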
